A study of Mus musculus with 41 samples.

Results

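Krt8, Krt18, Krt19 and Krt7 encode the keratins that mark simple, single-layered epithelium. These 4 genes were taken by symbol from a table of 55487 mouse genes measured in 41 libraries of embryonic stem cells, in which 54 symbols consist of Krt and a number. All 4 were present, and all 4 were among the 16967 genes that reached 1 CPM (1 read per 1000000 reads assigned to genes) in at least 3 libraries. Krt7 (ENSMUSG00000023039) lies on chromosome 15 at 101411043 to 101430313 (GRCm38, plus strand). Krt8 (ENSMUSG00000049382) lies on the same chromosome at 101996698 to 102004482 on the minus strand, 566 kb beyond Krt7. Krt18 (ENSMUSG00000023043, chromosome 15, 102028180 to 102032027, plus strand) faces away from Krt8, and the starts of the pair are 23.7 kb apart. Krt19 (ENSMUSG00000020911) lies on chromosome 11 at 100140810 to 100148665 on the minus strand.

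Keratin filaments are built from pairs, each of a basic type II keratin and an acidic type I keratin, so that neither type forms filaments alone. Krt8 and Krt7 are of type II, and Krt18 and Krt19 are of type I. Krt8 with Krt18 is the first keratin pair of the mouse embryo and is a known mark of the trophectoderm, whereas the inner cell mass, from which embryonic stem cells derive, carries little of it. Krt19 joins this pair in trophectoderm and many simple epithelia, and Krt7 is known from ducts, trophoblast and other specialised simple epithelia.

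The cells were E14 mouse embryonic stem cells, derived from the blastocyst. In the lines labelled KO2 and KO3 Esrrb, an orphan nuclear receptor of naive pluripotency, was genetically depleted, and the WT line carried Esrrb. Each line was measured in 2iL, which is N2B27 medium with the inhibitors CHIR99021 and PD0325901 and the cytokine LIF. Each line was also measured after 1 day in N2B27 without these factors on fibronectin, followed by 1, 3 or 5 days in AloXR (activin A, XAV and BMS439 in N2B27), the medium used to derive formative stem cells. These times are called day 1, day 3 and day 5. KO2 had 3, 4, 4 and 4 libraries at 2iL, day 1, day 3 and day 5, KO3 had 3, 4, 2 and 2, and WT had 3, 4, 4 and 4. Libraries were made with QuantSeq, which gives 1 tag near the 3′ end of a transcript, so CPM values are not divided by transcript length. Comparing levels between genes assumes that their tags are captured and assigned alike, which was not checked.

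Depth was 3424064 to 5736053 assigned reads per library (median 4581394), and 3 reads, the limit that a count of 0 allows, equalled 0.523 to 0.876 CPM. Such limits and the exact intervals of pooled reads below cover counting error only. The intervals of differences in log2(CPM + 1) come from the fit and rest on the spread between libraries. Mitochondrial genes took 3.39% to 4.41% of reads in KO2 and 4.02% to 4.62% in KO3 at day 1, against 2.97% to 3.2% in WT, and 2.66% to 2.96% in KO2 and 3.31% to 3.43% in KO3 at day 5, against 2.21% to 2.57% in WT. In 2iL and at day 3 the depleted and WT ranges overlapped, and the part of this share in the results was not tested. In 2iL the Esrrb tag stood at 52.0 to 56.7 CPM in KO2 and 103 to 166 CPM in KO3, against 309 to 434 CPM in WT. At day 1 it stood at 1.64 to 5.52 CPM in KO2 and 26.1 to 41.4 CPM in KO3, against 12.2 to 17.8 CPM in WT, and at day 3 at 1.16 to 3.20 CPM in KO2 and 4.87 to 6.17 CPM in KO3, against 1.19 to 1.83 CPM in WT. The libraries labelled KO3 thus held more of this tag than WT at day 1 and day 3, and at day 5 no library exceeded 1.69 CPM. The part of Esrrb that was altered is not given in the labels, and a 3′ tag outside it does not check the loss. Nothing in the labels tells separate cultures from repeat libraries, and p-values here measure only the spread between libraries. With 1 WT line, effects of Esrrb depletion and other differences between the lines cannot be told apart. In bulk RNA, fewer cells of a type and less RNA per cell cannot be told apart either.

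Promoter sequences are shown because 3 of the 4 genes share chromosome 15 and because Esrrb binds a known DNA element, and they let the starts of Krt7, Krt8 and Krt18 be compared by eye. The RefSeq promoter table (GRCm38.p6, 250 bases before to 50 bases after each annotated start) matched 3 of the 4 genes. Capitals mark matches to any of 7 motifs searched on both strands. Of these, TCAAGGTCA is the Esrrb element and AGGTCA is the nuclear receptor half-site inside it. GCCNNNGGC is the Tfap2 motif and GGGCGG is the GC box. TATAAA is the TATA box, TGANTCA is the AP-1 motif and CATTCC is the Tead motif. The windows are Krt7 at chr15:101412153-101412452 (plus strand), Krt8 at chr15:102004293-102004592 (minus strand) and Krt18 at chr15:102027966-102028265 (plus strand), each written 5′ to 3′ along its gene.

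Krt7: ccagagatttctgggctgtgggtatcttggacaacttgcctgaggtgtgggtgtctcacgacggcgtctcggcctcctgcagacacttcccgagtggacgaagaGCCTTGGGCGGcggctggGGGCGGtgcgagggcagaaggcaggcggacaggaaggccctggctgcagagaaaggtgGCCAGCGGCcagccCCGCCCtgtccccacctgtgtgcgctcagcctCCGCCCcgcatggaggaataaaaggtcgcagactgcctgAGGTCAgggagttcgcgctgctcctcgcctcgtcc

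Krt8: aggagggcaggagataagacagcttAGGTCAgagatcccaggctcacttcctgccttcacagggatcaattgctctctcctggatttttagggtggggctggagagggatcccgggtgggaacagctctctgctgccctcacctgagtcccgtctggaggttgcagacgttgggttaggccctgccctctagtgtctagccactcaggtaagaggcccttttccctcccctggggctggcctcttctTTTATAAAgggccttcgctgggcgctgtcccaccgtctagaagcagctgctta

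Krt18: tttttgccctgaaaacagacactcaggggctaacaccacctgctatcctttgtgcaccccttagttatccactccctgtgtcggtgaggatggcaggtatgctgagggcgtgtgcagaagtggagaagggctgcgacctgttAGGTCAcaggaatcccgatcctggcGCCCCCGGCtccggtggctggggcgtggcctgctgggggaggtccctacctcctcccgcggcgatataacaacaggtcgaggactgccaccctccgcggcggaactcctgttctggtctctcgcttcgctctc

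The full Esrrb element was in none of the 3 windows and in 0.423% of the 32851 promoters of the table. The half-site AGGTCA, which was searched for after the sequences had been read, was in all 3 windows, at 16 bases after the RefSeq start of Krt7 and at −225 and −108 from those of Krt8 and Krt18, and in 16.3% of all promoters. GCCNNNGGC was found 2 times in Krt7 and 1 time in Krt18, not in Krt8, and in 16.6% of all promoters. GGGCGG was found 4 times in Krt7 alone of the 3, 1 of them overlapping a GCCNNNGGC match, and in 35.7% of promoters. TATAAA was found on both strands of 1 overlapping run in Krt8, beginning at −3 and −1 and so lying across the RefSeq start, and in 13.6% of promoters. The Tead motif (14.7% of promoters) and the AP-1 motif (7.81%) matched none of the 3. G and C made up 66.3% of the Krt7 window, 58.0% of the Krt8 window and 61.3% of the Krt18 window, against a median of 52.7% over all promoters. No binding was measured, and these matches describe letters only.

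**Figure D1:**
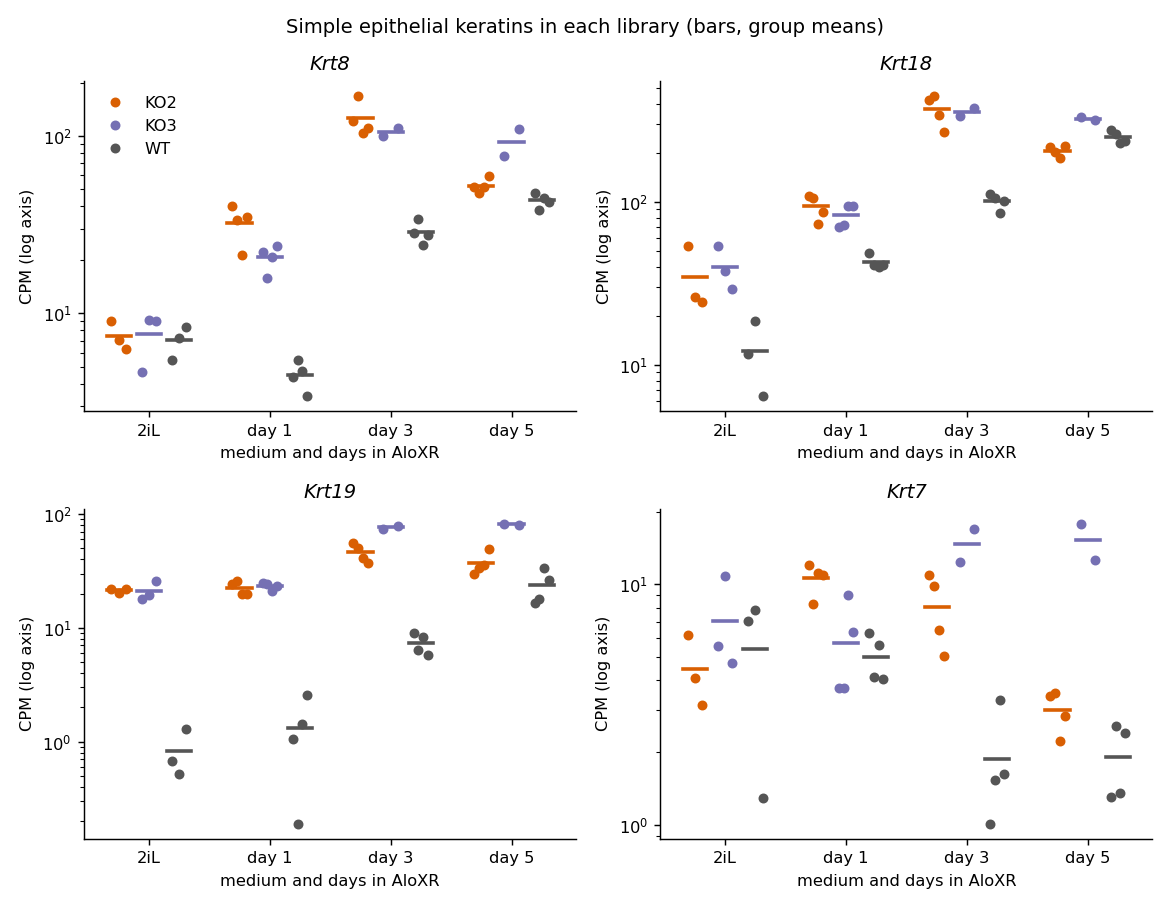
CPM on a log axis of Krt8, Krt18, Krt19 and Krt7 in each of the 41 libraries, by time (2iL and days in AloXR) and line; points are libraries and bars are group means. Krt19 was at 18.02 to 25.8 CPM in every depleted library in 2iL, against 0.52 to 1.29 CPM in WT, whereas Krt8 overlapped between the lines there.

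In 2iL, Krt19 and Krt18 were higher in both depleted lines than in WT, while Krt8 and Krt7 were not called. Krt19 was at 21.9, 20.3 and 21.97 CPM in the KO2 libraries and 18.02, 19.4 and 25.8 CPM in the KO3 libraries, against 0.68, 0.52 and 1.29 CPM in the WT libraries. Every depleted library lay far above every WT library, and the WT values rested on 3, 2 and 6 reads, at or near the limit of detection. The difference of the depleted lines from WT in log2(CPM + 1) was 3.62 ± 0.22 (SE; limma adjusted p = 1.76e-17), a scale that understates ratios at such low levels. Taken over the pooled reads, 606 in the depleted libraries and 11 in WT, the ratio of Krt19 shares was 25.1, with an exact binomial 95% interval of 13.9 to 50.5.

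Krt18 stood at 53.7, 25.97 and 24.5 CPM in KO2 and 53.8, 37.5 and 29.1 CPM in KO3 in 2iL, against 11.6, 18.5 and 6.44 CPM in WT. The groups did not overlap, although library 1 of each depleted line was well above its other libraries and the WT libraries also differed among themselves. The difference was 1.58 ± 0.22 (adjusted p = 1.06e-06), and 1.42 without library 3 of each line. Its partner Krt8 stood at 9.05, 7.10 and 6.28 CPM in KO2 and 4.67, 9.21 and 9.07 CPM in KO3, against 5.46, 7.29 and 8.37 CPM in WT. These ranges lay over one another, with a difference of 0.08 (95% interval −0.29 to 0.44, adjusted p = 0.824). Krt7, the other type II gene, stood at 6.13, 4.06 and 3.14 CPM in KO2 and 5.56, 10.8 and 4.71 CPM in KO3, against 7.05, 7.81 and 1.29 CPM in WT. WT library 3 was the lowest of all 9 libraries and the groups overlapped (difference 0.22, 95% interval −0.40 to 0.84, adjusted p = 0.679). The sign of this uncalled difference turned to −0.21 without library 3 of each line.

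At day 1, Krt8 joined Krt18 and Krt19 in being higher in both depleted lines. Krt8 had 40.2, 33.3, 21.2 and 34.9 CPM in KO2 and 22.2, 15.8, 20.8 and 23.9 CPM in KO3, against 4.38, 5.42, 4.75 and 3.41 CPM in WT. Every depleted library was above every WT library, and KO2 was mostly above KO3. The difference from WT was 2.28 ± 0.16 (adjusted p = 1.59e-15). Krt18 had 109, 106, 73.4 and 86.4 CPM in KO2 and 69.9, 71.7, 94.9 and 94.9 CPM in KO3, against 48.6, 41.1, 39.6 and 41.1 CPM in WT. Again no library overlapped, with a smaller difference of 1.02 ± 0.19 (adjusted p = 0.000137).

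Krt19 had 24.4, 25.8, 19.8 and 19.6 CPM in KO2 and 24.8, 24.1, 21.2 and 23.3 CPM in KO3 at day 1, against 1.05, 0.19, 1.44 and 2.56 CPM in WT. The depleted libraries stayed in the range they had in 2iL, and WT library 2 held a single read. The difference was 3.47 ± 0.19 (adjusted p = 7.69e-19), and the ratio over pooled reads (792 in the depleted libraries, 26 in WT) was 18.2, with an exact 95% interval of 12.3 to 28. Krt7 had 12.1, 8.28, 11.2 and 10.9 CPM in KO2 and 3.70, 3.72, 9.0 and 6.32 CPM in KO3, against 6.30, 4.11, 5.57 and 4.05 CPM in WT. KO2 lay above WT in all 4 libraries and KO3 overlapped it. The mean difference of 0.53 was not called (95% interval −0.01 to 1.06, adjusted p = 0.165), while KO2 alone differed by 0.96 (adjusted p = 0.0219).

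At day 3 all 4 keratins were higher in both depleted lines. Krt18, the most abundant of them, had 423, 446, 340.4 and 269 CPM in KO2 and 337 and 376 CPM in KO3, against 111, 106, 85.1 and 101 CPM in WT. Krt8 had 122, 168, 104 and 112 CPM in KO2 and 100.4 and 111 CPM in KO3, against 28.4, 34.05, 24.2 and 27.5 CPM in WT. For both partners the depleted libraries stood far above all WT libraries, and KO2 and KO3 overlapped. The differences were 1.83 ± 0.20 for Krt18 (adjusted p = 1.73e-08) and 1.98 ± 0.17 for Krt8 (adjusted p = 1.28e-12). Krt19 had 55.5, 50.5, 41.1 and 37.4 CPM in KO2 and 74.4 and 78.8 CPM in KO3, against 8.93, 6.33, 8.30 and 5.79 CPM in WT. The 3 lines formed separate ranges in the order KO3, KO2, WT, and the difference from WT was 2.87 ± 0.20 (adjusted p = 2.99e-15). Krt7 had 10.96, 9.84, 6.46 and 5.04 CPM in KO2 and 12.3 and 17.03 CPM in KO3, against 1.01, 1.53, 3.32 and 1.63 CPM in WT. These ranges were likewise separate, on 26 to 70 reads in each depleted library and 5 to 14 in each WT library (difference 2.08 ± 0.29, adjusted p = 2.20e-07).

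At day 5 the differences were smaller and came mainly from KO3. Krt18 had 217, 201, 187 and 221 CPM in KO2 and 331 and 317 CPM in KO3, against 277, 259.9, 229 and 237 CPM in WT. All KO2 libraries lay below WT and both KO3 libraries above it, and the mean difference was 0.05 (95% interval −0.37 to 0.46, adjusted p = 0.892). Krt8 had 51.7, 47.5, 51.4 and 59.2 CPM in KO2 and 76.8 and 109 CPM in KO3, against 47.3, 38.4, 44.8 and 42.3 CPM in WT. The lowest KO2 library was barely above the highest WT library, and KO3 stood clear of both. The difference was 0.67 ± 0.17 (adjusted p = 0.00196). It fell below the 1.5-fold limit without KO3 library 2 (0.55, adjusted p = 0.0303), and KO2 alone gave 0.27 (adjusted p = 0.295).

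Krt19 had 29.6, 33.4, 35.6 and 49.6 CPM in KO2 and 82.1 and 80.6 CPM in KO3 at day 5, against 16.6, 17.8, 33.9 and 26.2 CPM in WT. KO2 overlapped the top of WT and KO3 did not, with a difference of 1.23 ± 0.20 (adjusted p = 6.16e-06). Krt7 had 3.42, 3.55, 2.23 and 2.83 CPM in KO2 and 17.9 and 12.7 CPM in KO3, against 1.31, 2.58, 1.36 and 2.40 CPM in WT. Only KO3 stood clear of WT, and the mean difference was 1.48 ± 0.29 (adjusted p = 8.07e-05), against 0.48 in KO2 alone (adjusted p = 0.278) and 2.49 in KO3 alone (adjusted p = 1.63e-06).

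A gene was called at an adjusted p under 0.05 and at least 1.5-fold, with both depleted lines on the same side of WT. By this rule 2 of the 4 keratins were called higher in the depleted lines in 2iL, 3 at day 1, 4 at day 3 and 3 at day 5, and none was called lower at any time. Of all 16967 genes tested, 8.11%, 6.31%, 10.8% and 8.89% were called higher at these times, and 7.60%, 5.50%, 6.49% and 11.7% were called lower. At day 3 the whole-table split was 1830 higher and 1101 lower, and 1418 and 1381 after quantile normalization, under which all 4 keratins were again called higher.

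**Figure D2:**
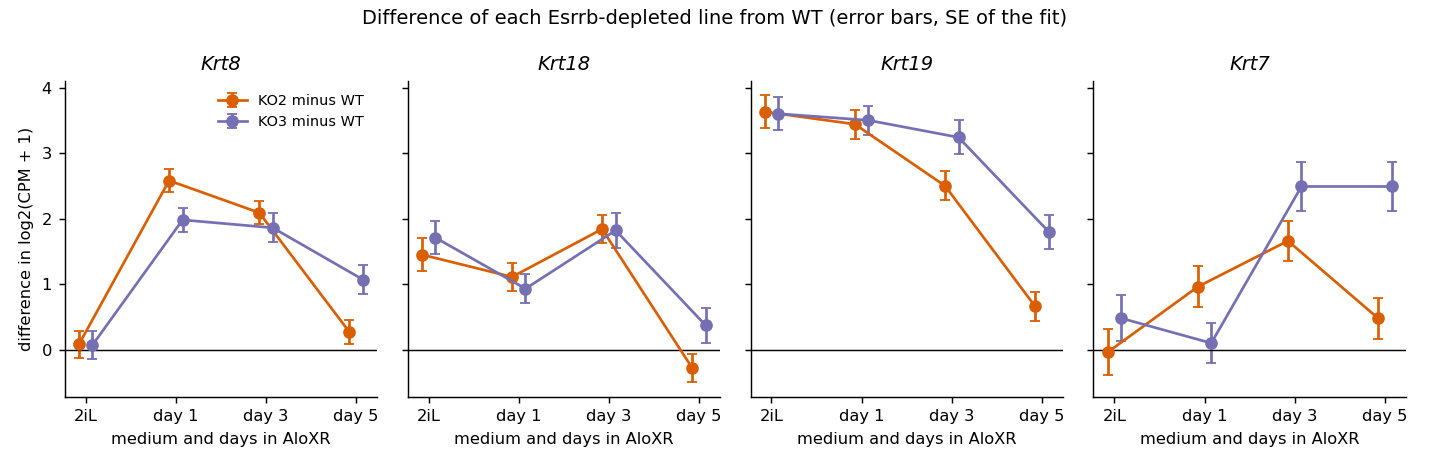
Difference in log2(CPM + 1) of KO2 and of KO3 from WT at each time for the 4 keratins, with the SE of the fit as error bars. Krt19 started at 3.63 in KO2 and 3.6 in KO3 and was lower at day 5, Krt8 started near 0 and was highest at day 1, and Krt7 parted between the lines at day 5 (0.48 in KO2, 2.49 in KO3).

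Followed from 2iL, Krt18 was called higher at every AloXR time in all 3 lines. In WT its change was 1.83 at day 1, 3.05 at day 3 and 4.36 at day 5, so its WT mean of 251 ± 21.9 CPM at day 5 (SD, n = 4) was the highest of that line. In KO2 the changes were 1.48, 3.44 and 2.63, and in KO3 they were 1.06, 3.16 and 3.03, with means highest at day 3 in both. Krt8 was called higher at every time in the depleted lines, by 1.96, 3.90 and 2.67 in KO2 and 1.36, 3.67 and 3.47 in KO3. In WT its day 1 value was below that of 2iL, short of the 1.5-fold limit (−0.55, adjusted p = 0.0199), and it was called higher at day 3 (1.88) and day 5 (2.47).

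Krt19 was not called at day 1 in any line. At day 3 and day 5 its changes were 1.06 and 0.74 in KO2, 1.83 and 1.92 in KO3 and 2.19 and 3.72 in WT, all called. Krt7 alone was called lower in WT, by −0.98 at day 3 and −0.93 at day 5. Neither of these WT calls held without 2iL library 1 (adjusted p = 0.119 and 0.155) or without 2iL library 2 (0.156 and 0.199), and that at day 5 did not hold without WT library 1 of that time (0.0525). Without library 3 of each line in 2iL, both held with larger changes, −1.61 (adjusted p = 1.81e-05) and −1.56 (3.38e-05). In KO2 Krt7 was called higher at day 1 (1.12) only, with values of 0.72 at day 3 (adjusted p = 0.0728) and −0.42 at day 5 (adjusted p = 0.324). In KO3 it was called higher at day 3 (1.03) and day 5 (1.08). The first call was lost without any of 4 libraries, KO3 libraries 1 and 2 of day 3 (1.24 and 0.81) and libraries 1 and 3 of 2iL (0.92 and 0.82). The second was lost without KO3 library 1 of day 5 (0.84) or libraries 1 and 3 of 2iL (0.97 and 0.87).

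Members called against 2iL at day 1, day 3 and day 5 thus numbered 3, 3 and 3 in KO2, where 30.2%, 35.6% and 34.5% of all genes were called in either direction. In KO3 they numbered 2, 4 and 4, against 33.5%, 37.1% and 41.7% of all genes. In WT they numbered 1, 4 and 4, the last 2 counts each with Krt7 lower, against 36.4%, 41.7% and 39.4%.

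The change from 2iL was itself compared between the depleted lines and WT. Krt8 changed by 2.20 ± 0.24 more in the depleted lines at day 1 (adjusted p = 4.37e-09) and by 1.90 ± 0.25 more at day 3 (adjusted p = 1.49e-07). Krt7 changed by 1.86 ± 0.42 more at day 3 (adjusted p = 0.00120) and by 1.26 ± 0.42 more at day 5 (adjusted p = 0.0264). At day 5 Krt19 changed by −2.39 ± 0.30 (adjusted p = 4.20e-08) and Krt18 by −1.53 ± 0.30 (adjusted p = 0.000290) relative to WT. Both type I genes had been higher in the depleted lines in 2iL. The count was 1, 2 and 3 of 4 members at day 1, day 3 and day 5, and 9.16%, 14.8% and 18% of all genes were called in these comparisons. The Krt7 call at day 5 was lost without any of 5 single libraries (KO3 library 1 of day 5, WT libraries 1 and 2 of 2iL, and WT libraries 1 and 3 of day 5), with an adjusted p of up to 0.146.

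The depleted lines were also compared with each other. No member was called between KO3 and KO2 in 2iL, where 7.24% of all genes were. At day 1, 2 of 4 were called lower in KO3, Krt7 by −0.86 ± 0.31 (adjusted p = 0.0362) and Krt8 by −0.60 ± 0.18 (adjusted p = 0.0120), beside 15% of all genes in either direction. The Krt7 call was lost without KO2 library 1, 3 or 4 or KO3 library 1 or 2 (−0.71 to −0.84), and the Krt8 call without KO2 library 1, 2 or 4 or KO3 library 2 (−0.49 to −0.58). At day 3 none was called, beside 7.69% of all genes, with Krt19 at 0.74 ± 0.26 (adjusted p = 0.0650). At day 5, 3 of 4 were called higher in KO3, Krt7 by 2.02 ± 0.38 (adjusted p = 0.000144), Krt19 by 1.14 ± 0.26 (adjusted p = 0.00184) and Krt8 by 0.80 ± 0.22 (adjusted p = 0.00975), beside 14.1% of all genes. Krt18 stood at 0.65 there (adjusted p = 0.0897). The Krt8 call at day 5 was lost without KO3 library 2 (0.55, adjusted p = 0.251), and KO3 had only 2 libraries at day 3 and at day 5.

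The order of the 12 group means differed between the genes. For Krt8 it ran upward from WT day 1 through WT, KO2 and KO3 in 2iL, KO3 day 1, WT day 3, KO2 day 1, WT day 5, KO2 day 5, KO3 day 5 and KO3 day 3 to KO2 day 3. The 3 lines in 2iL overlapped, as did WT day 3 with KO2 day 1, KO2 day 1 with WT day 5, and each neighbouring pair from KO3 day 5 upward, which made 6 of 11 neighbouring pairs. For Krt18 it ran from WT in 2iL through KO2 and KO3 in 2iL, WT, KO3 and KO2 at day 1, WT day 3, KO2, WT and KO3 at day 5 and KO3 day 3 to KO2 day 3. Of its neighbouring pairs 5 of 11 overlapped, those among KO2 and KO3 in 2iL and WT day 1, those among KO3 and KO2 at day 1 and WT day 3, and KO3 with KO2 at day 3.

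For Krt19 the order ran from WT in 2iL through WT day 1, WT day 3, KO3 and KO2 in 2iL, KO2 and KO3 at day 1, WT day 5, KO2 day 5, KO2 day 3 and KO3 day 3 to KO3 day 5. WT in 2iL overlapped WT day 1, and the run from KO3 in 2iL to KO2 day 3 overlapped step by step, 7 of 11 pairs in all. WT thus reached at day 5 a mean (23.6 ± 8.06 CPM, SD, n = 4) inside the range that the depleted lines held in 2iL. For Krt7 10 of 11 neighbouring pairs overlapped, in the order WT day 3, WT day 5, KO2 day 5, KO2 in 2iL, WT day 1, WT in 2iL, KO3 day 1, KO3 in 2iL, KO2 day 3, KO2 day 1, KO3 day 3 and KO3 day 5. The single gap lay between KO2 day 1 and KO3 day 3.

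**Figure D3:**
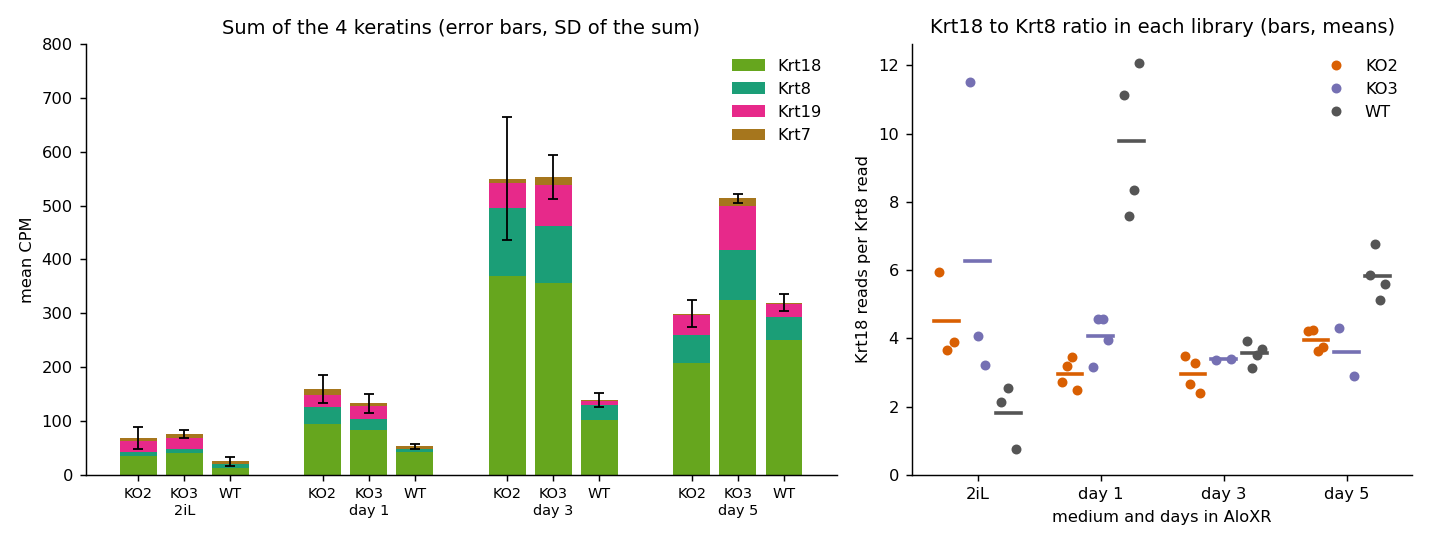
Left, mean CPM of the 4 keratins stacked for each line and time, with the SD of their sum as error bars; right, Krt18 reads per Krt8 read in each library, with group means as bars. The sum was 550.1 CPM in KO2 and 553.5 CPM in KO3 at day 3, against 139 CPM in WT, and the ratio in WT was highest at day 1.

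Summed per library, the 4 keratins made up 68.0 ± 19.8 CPM in KO2 and 75.9 ± 6.75 CPM in KO3 in 2iL, against 25.4 ± 8.38 CPM in WT (SD, n = 3 each). At day 1 the sums were 159 ± 26.5 CPM in KO2 and 132.5 ± 17 CPM in KO3, against 53.4 ± 4.63 CPM in WT (n = 4 each). At day 3 they were 550.1 ± 114 CPM in KO2 (n = 4) and 553.5 ± 40.9 CPM in KO3 (n = 2), against 139 ± 13.3 CPM in WT (n = 4), and at day 5 they were 299 ± 25 CPM in KO2 and 514 ± 8.33 CPM in KO3, against 319.5 ± 16 CPM in WT. Libraries of the depleted lines lay above all WT libraries at the first 3 of these times, and at day 5 KO2 and WT overlapped.

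The makeup of this sum differed as well. Krt19 supplied 32.9% ± 7.89 of the reads in KO2 and 28.3% ± 8.23 in KO3 in 2iL, against 3.90% ± 3.1 in WT. Krt8 supplied 11.2% ± 1.2 in KO2 and 10.3% ± 4.03 in KO3, against 30.5% ± 15.3 in WT. The ratio of Krt18 to Krt8 reads at day 1 was 2.73, 3.18, 3.46 and 2.48 in the KO2 libraries and 3.15, 4.56, 4.57 and 3.96 in the KO3 libraries, against 11.1, 7.59, 8.35 and 12.1 in the WT libraries. Every WT library therefore held more Krt18 per Krt8 than any depleted one at that time. In 2iL the order was the reverse, with 5.94, 3.66 and 3.90 in KO2 and 11.52, 4.07 and 3.21 in KO3, against 2.13, 2.54 and 0.769 in WT. At day 3 the ranges overlapped, with means of 2.95 in KO2 and 3.38 in KO3, against 3.56 in WT. At day 5 they were 3.95 in KO2 and 3.61 in KO3, against 5.83 in WT, without overlap.

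Of 50 further Krt genes in the table, 11 passed the filter on low values. Of these 11, 2 were called higher in the depleted lines in 2iL, 4 at day 1, 6 at day 3 and 4 at day 5, and none was called lower. Their median changes were 0.16, 0.51, 0.85 and 0.47, beside 0.04, 0.02, 0.03 and 0.00 over all genes tested. They were 0.16, 0.51, 1.18 and 0.60 with genes that had no WT read set to a bound. This bound is the mean of KO2 and KO3 over the WT limit (3 reads over the WT group). It is not a bound for each line alone, and it leaves out the counting error of the depleted values. Some of the 11, such as Krt15 with WT means of at most 0.317 CPM, passed the filter mainly through depleted libraries. The filter thus tilts these counts and medians upward. Without it 44 genes were tested, with 3, 4, 6 and 3 called higher, 0 lower, and median changes of 0.00, 0.08, 0.03 and 0.00. Krt17, a type I keratin of basal and wounded epithelium, averaged 2.94 CPM in KO2 and 12.4 CPM in KO3 in 2iL, against 1.55 CPM in WT, and was called at all 4 times (1.5, 2.35, 2.06 and 0.79). Krt16, the type I partner of Krt6 in activated keratinocytes, was called at all 4 times too, by 0.87 in 2iL and 1.64 at day 3. At day 1 it averaged 1.23 CPM in KO2 and 1.26 CPM in KO3, with no read in WT. The mean of both lines was 8.55 times the WT limit there. At day 5, again with no WT read, it was 5.99 times that limit.

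Krt15, a basal type I keratin that lies 4882 bases from Krt19, averaged 3.27 CPM in KO2 and 7.44 CPM in KO3 at day 3, against 0.147 CPM in WT (2.38 ± 0.22, adjusted p = 7.95e-12), and was called at day 5 (1.43) as well. Krt12, known from the corneal epithelium, was called at day 1 (1.57) and day 3 (1.18). Krt20, Krt42 and Krt14 were called at times when their mean levels were under 2 CPM. Krt20, a keratin of gut epithelium, had no WT read at day 3, where the mean of both depleted lines was 5.65 times the WT limit. It was 0.90 higher on the log2 scale at day 5. Krt42 had no WT read at day 3 either, and its mean of both lines was 6.44 times the WT limit, with 0.598 CPM in KO2 and 1.41 CPM in KO3. Krt14, a basal type I keratin, was 0.70 higher at day 1. Krt10, Krt222, Krt80 and Krt1 were called at no time, and Krt10 was the only one of them above 2 CPM, at 7.11 CPM in KO2 and 11.8 CPM in KO3 in 2iL, against 12 CPM in WT. In 2iL Krt42 averaged 6.08 CPM in KO2 and 10.8 CPM in KO3, against 8.99 CPM in WT. With a pseudocount of 5 CPM the calls among these 11 genes were 1, 2, 2 and 0.

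Of 19 genes for desmosomes, hemidesmosomes and the plakins that anchor keratin filaments, 17 were tested. In 2iL 2 were called higher and 4 lower, at day 1 8 higher and 0 lower, at day 3 11 higher and 0 lower, and at day 5 5 higher and 2 lower, with median changes of −0.25, 0.54, 0.83 and 0.37. Perp, a desmosomal membrane protein and p63 target, was called higher at all 4 times (1.62, 2.49, 1.36 and 1.23), with 15.7 CPM in KO2 and 16 CPM in KO3 in 2iL, against 4.60 CPM in WT. Dsp, the plakin that ties keratin filaments to the desmosome, was lower in 2iL (7.93 CPM in KO2 and 12.8 CPM in KO3, against 26.2 CPM in WT; −1.12 ± 0.30, adjusted p = 0.00492) and higher at day 1 (1.5) and day 3 (1.19). Dsg2, a desmosomal cadherin, was lower in 2iL (−1.17), as were Eppk1 (−1.0) and the hemidesmosome integrin Itga6 (−0.66), while the plakophilin Pkp2 was higher (0.87).

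At day 1 the plakins Eppk1 (1.01) and Dst (0.83), plakoglobin Jup (0.70) and the hemidesmosome integrin Itgb4 (0.67) were higher as well. At day 3 Itgb4 had the largest difference (1.52), with 4.58 CPM in KO2 and 9.50 CPM in KO3, against 1.64 CPM in WT. Pkp3 (1.34), a plakophilin of epithelial desmosomes, Eppk1 (1.32) and Dst (0.98) were higher there too. At day 5 Itgb4 (0.84), Pkp3 (0.83) and the plakin Plec (0.62) were higher and Dsc2 (−0.89) and Ppl (−0.65) lower. In KO2 alone 3 of these genes were called higher and 1 lower at day 1, against 10 and 0 in KO3 alone, and at day 5 the counts were 2 and 3 in KO2 and 7 and 0 in KO3. Of all genes tested, KO2 alone had 6.75% higher and 6.72% lower at day 1 and 6.27% and 10.6% at day 5. KO3 alone had 8.50% and 6.93% at day 1 and 12.8% and 12.6% at day 5. With a pseudocount of 5 CPM 4 of the listed genes were called higher at day 1, and 2 higher and 0 lower at day 5.

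**Figure D4:**
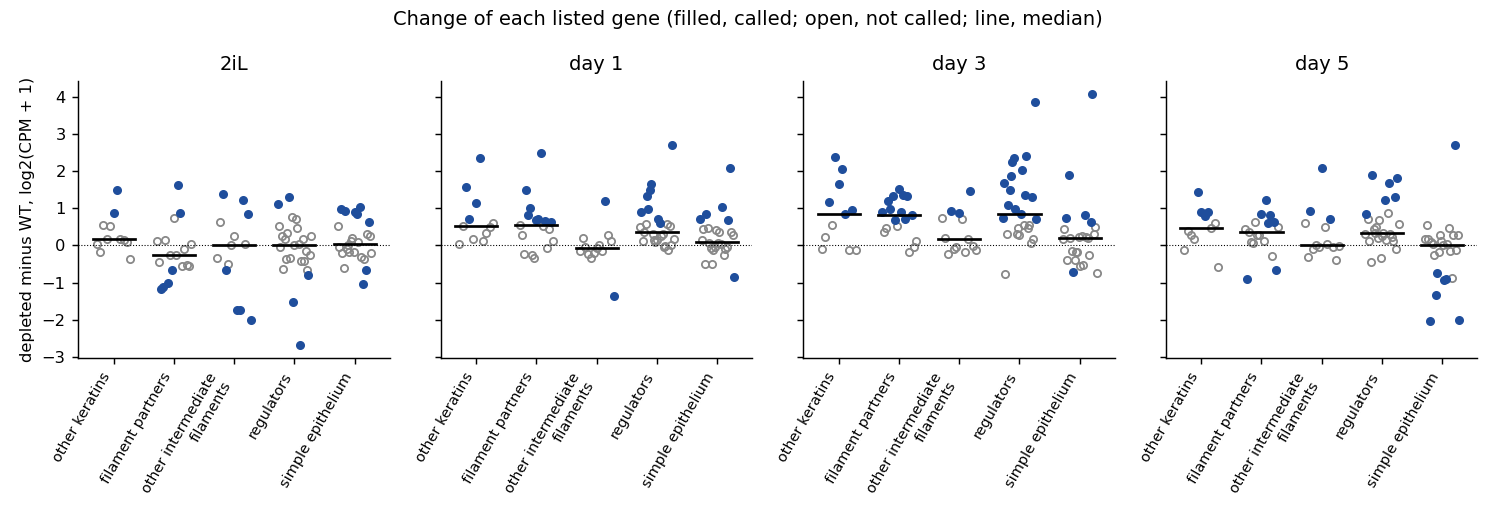
Difference in log2(CPM + 1) of the mean of KO2 and KO3 from WT for each tested gene of 5 lists at each time; filled points were called, open points were not, and lines are list medians. Filament partners and regulators had median changes of 0.83 and 0.84 at day 3, whereas simple epithelium genes stayed near 0 in the median (0.20).

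Among other intermediate filament genes the directions were mixed. Of 13 tested from 16, 3 were called higher and 4 lower in 2iL, 1 and 1 at day 1, 3 and 0 at day 3, and 3 and 0 at day 5, with median changes of 0.02 (−0.01 with edgeR's RLE factors), −0.06, 0.17 and 0.02. Taken by line, KO2 alone had 1 higher and 3 lower at day 1 (median −0.43), 1 and 0 at day 3 and 1 and 3 at day 5, whereas KO3 alone had 3 and 0 (median 0.27), 4 and 0, and 5 and 0. Over all genes tested, KO2 alone had 6.75% higher and 6.72% lower at day 1, 7.31% and 6.98% at day 3 and 6.27% and 10.6% at day 5. These shares in KO3 alone were 8.50% and 6.93%, 12.7% and 6.24%, and 12.8% and 12.6%. Vim, the filament of mesenchymal cells, averaged 84.3 CPM in KO2 and 58.3 CPM in KO3 in 2iL, against 286 CPM in WT (−2.00 ± 0.39, adjusted p = 0.000243), and was lower at day 1 too (−1.36). The neurofilament genes Nefl (−1.74) and Nefm (−1.73) were lower in 2iL, and Nes, the filament of neural progenitors, was higher in 2iL (1.23), at day 1 (1.19) and at day 5 (0.72). Ina (1.38) and Synm (0.85) were also higher in 2iL. Later calls were Prph (1.45), the lamin gene Lmna (0.93) and Nefh (0.88) at day 3, and Nefh (2.09) and Ina (0.93) at day 5.

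Of 26 transcription factor genes known from trophectoderm or epithelium, 25 were tested. They were called higher and lower 2 and 3 times in 2iL, 8 and 0 times at day 1, 15 and 0 times at day 3 and 6 and 0 times at day 5, with median changes of 0.00, 0.36, 0.84 and 0.33 (0.97 at day 3 with genes that had no WT read at their bound). Cdx2, with WT means of at most 0.286 CPM, passed the filter mainly through depleted libraries, and such genes tilt these counts upward. Tfap2c, an AP-2 factor of trophoblast and germ cells, averaged 18.5 CPM in KO2 and 45.5 CPM in KO3 at day 3, against 0.998 CPM in WT (3.86 ± 0.35, adjusted p = 2.61e-10), and was higher at day 1 (2.71) and day 5 (1.82). Klf5, a factor of trophectoderm and gut epithelium, averaged 69.9 CPM in KO2 and 148 CPM in KO3 at day 3, against 18.1 CPM in WT (2.41 ± 0.14, adjusted p = 1.26e-17), and was higher at day 5 (1.68). Gata3, a trophectoderm factor, was higher in 2iL (1.30), at day 1 (1.64) and at day 3 (2.36), and Gata2 was higher at day 1 (1.5). At day 3 Gata2 averaged 2.26 CPM in KO2 and 6.21 CPM in KO3, with no read in WT. The mean of both lines was 27.2 times the WT limit of 3 reads over the group.

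Of the AP-1 genes, Fosl1 was higher at day 1 (1.32) and day 5 (1.88), Fosl2 at day 1 (0.99) and day 3 (1.87), and Junb at day 3 (2.04) and day 5 (1.21). Tead4 (1.31) and Elf3 (0.84) were higher at day 5, and Elf3 (0.89) at day 1. Klf4, a naive factor, averaged 69.0 CPM in KO2 and 45.2 CPM in KO3 in 2iL, against 352 CPM in WT (−2.68 ± 0.24, adjusted p = 6.44e-12), and Grhl3 (−1.53) and Tfap2a (−0.80) were lower there as well. Cdx2, the founding factor of the trophectoderm, was called higher in 2iL (1.10) on means of 2.23 CPM in KO2 and 1.29 CPM in KO3, against 0.286 CPM in WT. In 2iL the sign of the list's median depended on the scaling (0.00, and −0.17 with edgeR's RLE factors). At day 1 the calls in the higher direction numbered 2 in KO2 alone and 13 in KO3 alone, and at day 5 they numbered 4 and 11. The shares of all genes tested were 6.75% in KO2 and 8.50% in KO3 at day 1, and 6.27% and 12.8% at day 5. With a pseudocount of 5 CPM the listed genes called higher numbered 0, 3, 8 and 4 at the 4 times.

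Junction and polarity genes of simple epithelium had calls in both directions. All 24 were tested, and 6 were called higher and 2 lower in 2iL, 5 and 1 at day 1, 5 and 1 at day 3 and 1 and 6 at day 5, with median changes of 0.05 (−0.03 with RLE factors), 0.10, 0.20 and 0.02. In KO2 alone 4 were called higher and 5 lower in 2iL (median −0.39) and 3 and 5 at day 3, whereas KO3 alone had 7 and 1 (median 0.48) and 6 and 0. Over all genes tested, KO2 alone had 9.90% higher and 7.94% lower in 2iL and 7.31% and 6.98% at day 3. KO3 alone had 6.12% and 7.10% in 2iL and 12.7% and 6.24% at day 3. With a pseudocount of 5 CPM the calls in this list were 2 higher and 2 lower in 2iL and 3 and 0 at day 1. The claudin gene Cldn4 averaged 161 CPM in KO2 and 201 CPM in KO3 at day 3, against 47.5 CPM in WT (1.89), and was higher at day 1 (0.84). Also called at day 1 were the adaptor gene Ap1m2 (0.71), the protease gene St14 (0.67) and, lower, the tight junction gene Tjp3 (−0.84), and at day 3 Cgn (0.75), St14 (0.63) and, lower, the polarity gene Crb3 (−0.71). The serine protease gene Prss8 was higher in 2iL (1.03), at day 1 (1.03) and at day 3 (0.81). In 2iL Cgn (0.97), Cldn6 (0.93), Marveld3 (0.90) and Muc1 (0.85) were higher and Spint1 (−1.05) was lower. At day 5 Cldn3 (−2.03), Tjp3 (−2.01), Crb3 (−1.32), Muc1 (−0.93) and Ocln (−0.89) were lower. Epcam averaged 209 CPM in KO2 and 361 CPM in KO3 at day 5, against 455 CPM in WT (−0.73), a gene named after its values were seen.

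Marker genes of other cell types also differed between the lines, in part with the keratins and in part not, and their part in these results was not tested. Some of those tested, such as Hand1 with WT means of at most 0.158 CPM, passed the filter mainly through depleted libraries. The filter thus tilts the counts of markers upward. Over all genes tested, 8.11%, 6.31%, 10.8% and 8.89% were called higher at the 4 times, and 7.60%, 5.50%, 6.49% and 11.7% lower. Of 13 trophoblast markers 10 were tested, of which 3 were called higher and 2 lower in 2iL, 5 and 0 at day 1, 9 and 0 at day 3 and 4 and 0 at day 5. Their summed level was 146 to 222 CPM in KO2 and 132 to 380 CPM in KO3 in 2iL, against 279 to 692 CPM in WT, and 199 to 289 CPM in KO2 and 289.9 to 294 CPM in KO3 at day 3, against 51.5 to 61.2 CPM in WT. At day 1 it was 73.6 to 95.7 CPM in KO2 and 107 to 132 CPM in KO3, against 33.4 to 36.3 CPM in WT, and at day 5 it was 123 to 194 CPM in KO2 and 258 to 270.0 CPM in KO3, against 86.2 to 110.4 CPM in WT. The sum included Id2 at day 3 (125 CPM in KO2 and 152 CPM in KO3, against 29.4 CPM in WT) and Fabp3 in 2iL (32.4 CPM in KO2 and 92.9 CPM in KO3, against 303 CPM in WT), genes that other cells express too. Cdx2, Gata3 and Tfap2c stand in both this list and that of transcription factors. Listed genes differed in level, with no read of Prl3d1 in any of the 41 libraries, none of Prl2c2 in 40 and none of Elf5 in 34. Others were higher in the depleted lines at day 3. Hand1 averaged 7.09 CPM in KO2 and 1.9 CPM in KO3 there, against 0.0998 CPM in WT. Plac1 averaged 5.08 CPM in KO2 and 7.26 CPM in KO3, against 0.145 CPM in WT. Of 15 primitive endoderm markers 14 were tested, of which 4 were called higher and 2 lower in 2iL, 6 and 0 at day 1, 8 and 0 at day 3 and 8 and 0 at day 5. Their sum at day 3 was 514 to 605 CPM in KO2 and 985 to 1076 CPM in KO3, against 327 to 404.5 CPM in WT, mostly Sparc (480 CPM in KO2 and 694 CPM in KO3, against 311 CPM in WT), while Sox7 had no read in 29 libraries and Ttr none in 23. At day 5 the sum was 531 to 688 CPM in KO2 and 1254 to 1371 CPM in KO3, against 492 to 612 CPM in WT. Gata6 averaged 0.406 CPM in KO2 and 14.4 CPM in KO3 at day 5, against 0.654 CPM in WT. Sox17 averaged 0.156 CPM in KO2 and 8.12 CPM in KO3, against 0.0568 CPM in WT.

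Of 13 stratified epithelium markers 7 were tested, with 0, 2, 3 and 3 called higher at the 4 times and 0 lower. Krt14, Krt15, Krt1 and Krt10 are among the tested further keratins too, so their calls are counted in both places. Krt15, with WT means of at most 0.317 CPM, passed the filter mainly through depleted libraries. Shares over all genes are those given with the trophoblast markers. The sum at day 3 was 117 to 173 CPM in KO2 and 225 to 236.5 CPM in KO3, against 50.5 to 72.9 CPM in WT, mostly Sfn, and Krt5 had no read in 34 libraries. Of 10 fibroblast markers 8 were tested, with 2, 4, 3 and 1 called higher and 0, 1, 1 and 1 lower, and sums at day 3 of 70.4 to 109 CPM in KO2 and 30.2 to 34.6 CPM in KO3, against 28.2 to 35.8 CPM in WT. Of the pluripotency genes that mark embryonic stem cells, 10 were summed as a check of the label, and they stood at 2203 to 2512 CPM in KO2 and 1902 to 2602 CPM in KO3 in 2iL, against 2489 to 2687 CPM in WT. The sum holds opposite changes. In 2iL Sox2 averaged 300 CPM in KO2 and 175 CPM in KO3, against 628 CPM in WT. Tdgf1 averaged 838 CPM in KO2 and 569 CPM in KO3, against 538 CPM in WT. At day 1 the sums of the 10 genes were 1098 to 1214 CPM in KO2 and 1165 to 1226 CPM in KO3, against 1496 to 1598 CPM in WT, without overlap, and at day 3 they were 765 to 1062 CPM in KO2 and 909.9 to 917 CPM in KO3, against 1017 to 1153 CPM in WT. At day 5 they were 681 to 913 CPM in KO2 and 830.4 to 834 CPM in KO3, against 731 to 841 CPM in WT.

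Genes that overlap the 4 keratins, and pseudogenes named after them, were checked for reads. Pseudogenes under other names and reads that match several places were not examined. The antisense gene Gm671 overlaps Krt7 and reached at most 0.206 CPM, and the lincRNA Gm36026 overlaps the start of Krt8 and reached at most 0.457 CPM. The row of the pseudogene Krt8-ps held no read. Within 100 kb of Krt8 and Krt18, Eif4b was called at no time (0.15, −0.26, −0.14 and −0.36). Spryd3 was called higher at day 3 (0.68) and Tns2 at day 5 (0.65). The median change of 663 tested genes on chromosome 15 was 0.00 to 0.04 at the 4 times, and that of 1298 genes on chromosome 11 was 0.01 to 0.05.

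Genes were also ranked by how like their 12 group means of log2(CPM + 1) were to those of each keratin, by Pearson correlation, over the 11970 tested genes whose highest group mean reached 5 CPM. These groups share lines, media and the rise of many genes in AloXR, and the values are a description. The nearest to Krt8 were Tagln (r = 0.963), AI661453 (0.961), Arhgap10 (0.957), Slc25a24 (0.946) and Met (0.941), with Krt18 10th (0.934). The nearest to Krt18 were Tab2 (0.972), Tpm1 (0.968), Tagln (0.964), Cdk14 (0.960) and Trim56 (0.960), with Krt8 36th. Tagln, an actin-binding protein of smooth muscle, and Tpm1, a tropomyosin, belong to the actin cytoskeleton, and Tagln averaged 47.6 CPM in KO2 and 45.0 CPM in KO3 at day 3, against 18.6 CPM in WT.

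The nearest to Krt19 were Anxa3 (0.974), Specc1 (0.929), Mycbp2 (0.928), Nrk (0.927) and Med12l (0.926). Anxa3, an annexin that binds membranes in the presence of calcium, averaged 11.7 CPM in KO2 and 11.1 CPM in KO3 in 2iL, against 1.31 CPM in WT, and 46.8 CPM in KO2 and 48.3 CPM in KO3 at day 5, against 17.1 CPM in WT. Among the nearest to Krt7 were the X-linked homeobox genes Rhox6 (0.908) and Rhox9 (0.891), Brox (0.889) and Frg1 (0.876). Between the members themselves r was 0.793 for Krt18 and Krt19, 0.780 for Krt8 and Krt19, 0.473 for Krt7 and Krt19, 0.350 for Krt7 and Krt8 and 0.271 for Krt7 and Krt18.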

How the data were processed

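RNA of 41 libraries was read as QuantSeq 3′ tags. STAR 2.7.6a, the GRCm38 genome and featureCounts 2.0.1 of Subread are named in the submitters' processing notes; the strand setting of the counting is not given in the sources used here. The authors deposited CPM values, summing to 1000000 in each column, and all columns were used. Whole reads were recovered from the smallest step, and 100% of 766190 values above 0 were whole within 0.01 reads. Replicate libraries of a group differed beyond sampling noise in all 53 pairs (chi-square per degree of freedom 1.56 to 28.6).

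Values were analysed as log2(CPM + 1) with limma 3.58.1 in R 4.3.3, fitting 12 group means to the 41 libraries (residual degrees of freedom 29), trended and robust empirical Bayes variances, and Benjamini-Hochberg adjustment over the 16967 genes that reached 1 CPM in 3 or more libraries. There were 20 comparisons of the 4 genes. Alternatives were other pseudocounts and filters, edgeR 4.0.16 on the recovered reads with TMM or RLE factors, quantile normalization, fits by time, single lines, chromosome-median centring and leaving out libraries. The code was tested on simulated data. Gene lists hold hand-picked genes, and the text names the listed genes called in a comparison with WT, at most 6 per list and comparison with the largest change, all other keratins tested, and the 5 genes most like each keratin; a few genes that this rule takes are not reported here. Members and lists were chosen with earlier results of these data known. Sequences are from RefSeq.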

Additional observations from a re-analysis of the deposited data

Results flagged for a closer look

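The following 11 results are listed because the difference between 2 groups' effects passed the limma test itself (adjusted p under 0.05 and at least 1.5-fold). KO3 was lower than KO2 at day 1 for Krt7 (−0.86, n = 4 against 4 libraries, with 3 of 4 KO3 libraries below all KO2 libraries) and for Krt8 (−0.60). Both are small, and several single libraries decide them: the first was lost without any of 5 libraries and the second without any of 4. KO3 was higher than KO2 at day 5 for Krt7 (2.02), Krt19 (1.14) and Krt8 (0.80), with both KO3 libraries above all 4 KO2 libraries for each gene.

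The change from 2iL differed between the depleted lines and WT for Krt8 at day 1 (2.20) and day 3 (1.90), and for Krt7 at day 3 (1.86) and day 5 (1.26). At day 5 it differed in the other direction for Krt18 (−1.53) and Krt19 (−2.39). Causes were not tested. Dixon's test within the 7 groups of 4 libraries can flag little with so few values, and nothing is concluded from it. Krt18 in WT at day 1 had 48.65 CPM in library 1, against 39.62 to 41.14 CPM in the others.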

How the results depend on the processing

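No paired analysis was possible because the labels number libraries only within a group and give no number shared between lines or times. Of 1420 alternatives of the 80 comparisons of the 4 keratins, 1358 left the call as it was, 39 lost it, 23 gained it and 0 reversed a called value. Of the 1358, 29 turned the sign of an uncalled value, over 14 comparisons, among them the difference in Krt19 change at day 3 (−0.75, and 0.22 with a pseudocount of 5 CPM); the cause was not tested except where an alternative has fewer libraries. Depth limits mainly Krt7, and Krt19 in WT in 2iL and at day 1.

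With edgeR on recovered reads, calls were gained for Krt18 between KO3 and KO2 at day 5 (0.62 with TMM, 0.61 with RLE), for Krt19 there at day 3 (0.70 and 0.69), for the difference in Krt19 change at day 3 (−1.59 and −1.54) and for WT Krt8 at day 1 against 2iL (−0.65 and −0.67), and that of Krt7 in KO3 at day 3 against 2iL was lost with TMM (0.97). A pseudocount of 5 CPM gained the KO3 to KO2 differences of Krt18 at day 5 (0.64) and Krt19 at day 3 (0.69) and lost those of Krt7 (−0.57) and Krt8 (−0.53) at day 1 and the WT changes of Krt7 at day 3 (−0.54) and day 5 (−0.52). A pseudocount of 0.5 CPM gained WT Krt8 at day 1 (−0.59) and the difference in Krt19 change at day 3 (−1.12). With no filter, the values of Krt7 between KO3 and KO2 at day 1 (−0.86), in KO3 at day 3 (1.03) and for the difference of changes at day 5 (1.26) stayed and their adjusted p passed 0.05, since more genes were tested. Quantile normalization gained Krt7 in KO2 at day 3 against 2iL (0.84). Without library 3 of each line in 2iL, Krt7 in KO3 at day 3 lost its call (0.82). KO2 alone against WT gained Krt7 at day 1 (0.96) and lost Krt7 (0.48) and Krt8 (0.27) at day 5.

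Leaving out 1 library changed calls of 15 comparisons, here with their lowest and highest values. For Krt7 these were KO3 against KO2 at day 1 (−1.08 to −0.71), WT at day 3 (−1.61 to −0.64) and day 5 (−1.56 to −0.59) against 2iL, KO2 at day 3 (0.54 to 0.93), KO3 at day 3 (0.81 to 1.34) and day 5 (0.84 to 1.39), and the difference of changes at day 5 (0.92 to 1.89). For Krt8 they were WT at day 1 against 2iL (−0.70 to −0.43), KO3 against KO2 at day 1 (−0.79 to −0.49) and day 5 (0.55 to 1.05), the depleted lines against WT at day 5 (0.55 to 0.80) and the difference of changes at day 5 (0.46 to 0.74). For Krt18 it was the difference of changes at day 1 (−0.90 to −0.20), and for Krt19 KO3 against KO2 at day 3 (0.64 to 0.83) and the difference of changes at day 3 (−0.92 to −0.63). Over all genes, a pseudocount of 5 CPM called 1396, 848, 1338 and 1730 genes against WT at the 4 times, beside 2666, 2005, 2931 and 3491, and a fit of the 2iL libraries alone called 1385.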
